A study of Schizosaccharomyces pombe with 8 samples.

Results

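bdf2 and seb1 were 2 of the 166 genes that the deposited list pairs with Pac1 on chromatin in the fission yeast Schizosaccharomyces pombe. They were chosen by their entry in that list and by peaks that cover only a part of the gene, so the share of each gene under its peak is a description and was not tested. The list holds 88 peaks and 172 gene-peak pairs. It was made from 2 chromatin immunoprecipitation sequencing (ChIP-seq) replicates of TAP-tagged Pac1 and the input of each, and gives 1 combined p-value per peak with no value per replicate, so no spread between replicates can be given. All 4 libraries came from the strain FBY2277 in minimal medium (EMM), of mating type h+, which carries Pac1-TAP-natMX6 along with his3-D1, ura4-D18, leu1-32 and ade6-M216. Every cell in both replicates thus held the tagged protein, and an untagged strain was not used here.

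Pac1 is an RNase III, an endonuclease that cuts hairpins of double-stranded RNA. Bdf2 belongs to the BET family, whose bromodomains bind acetylated histones, and in fission yeast it is known for its place at the boundaries of centromeric heterochromatin. In the budding yeast Saccharomyces cerevisiae, the mRNA of BDF2 is a known substrate of Rnt1, the RNase III of that species. Seb1 binds nascent RNA and RNA polymerase II near the ends of genes, where it acts in poly(A) site choice and transcription termination. Its budding yeast counterpart is Nrd1.

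The peak at bdf2 (SPAC631.02, plus strand) lay at I:2107034-2108830 in the coordinates of the list (build ASM294v2) and was 1797 bp wide, with a listed p-value of 8.8308e-188. It was paired with bdf2 alone. The listed bounds of bdf2 were I:2105472-2110519, a gene of 5048 bp. The peak covered 35.6% of it, began 1562 bp after its 5′ end and ended 1689 bp before its 3′ end. Its centre fell at 48.7% of the gene length, an offset of -63.5 bp from the midpoint (negative toward the 5′ end), so by the listed bounds the peak sat in the middle of the gene.

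The reference annotation (ASM294v3) gave another picture of the 5′ end of bdf2. Its bdf2 ends at the same base but begins 1542 bp further downstream, so the gene is 3506 bp long, the peak begins 20 bp after the gene start, and it covers 51.3% of the gene. Lengths differed by more than 1000 bp between the listed and the reference bounds for 18 of the 98 gene-peak pairs with a protein-coding gene found in the reference. Which start bdf2 used in these cells was not tested, as no RNA was measured in these libraries.

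**Figure D1:**
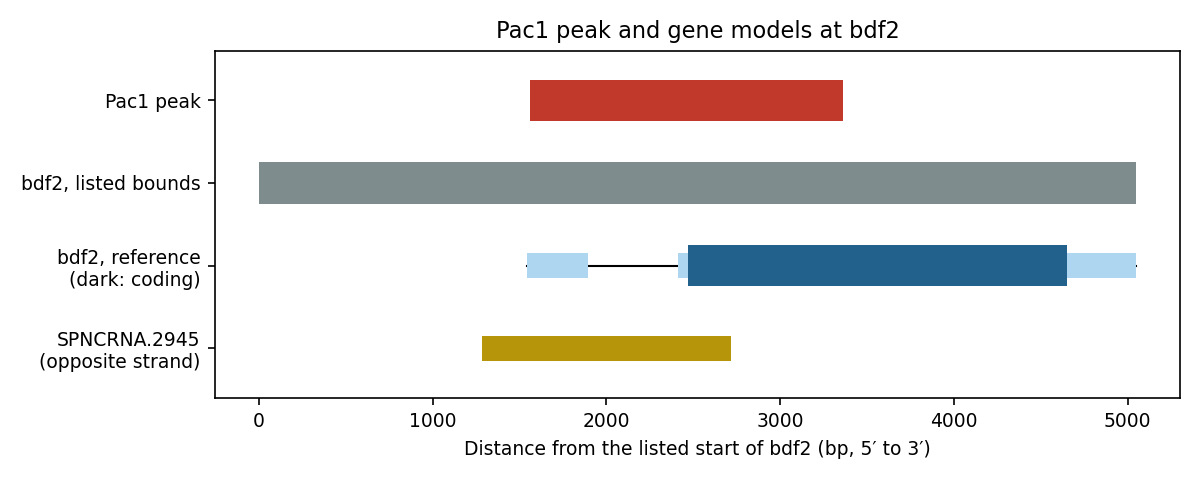
Pac1 peak (top row), listed bounds of bdf2, its reference transcript (thin light boxes are exons, thick dark boxes coding sequence, the line the intron) and an antisense RNA gene, by distance in bp from the listed start of bdf2. The peak begins 1562 bp after the listed start and 20 bp after the reference start.

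In the reference transcript of bdf2, the peak covered 334 of the 354 nt of exon 1, the whole intron of 514 bp, and 949 bp of exon 2. The intron is the only one of the gene and lies wholly before the start codon, 58 nt upstream of it. Such an intron is annotated in 102 of 5113 protein-coding genes (1.99%). The start codon itself lies 906 bp after the first base of the peak. From there the peak ran through 891 nt of coding sequence (297 of 728 codons counted with the stop codon, 40.8%) and stopped 1293 bp before the end of the stop codon. Both ends of the intron are given with the terminal GT and AG and, near the 3′ end, CTAAC in capitals, a form of the fission yeast branch point sequence.
bdf2 intron, first 60 bases (ASM294v3, plus strand, chrI:2107368-2107427): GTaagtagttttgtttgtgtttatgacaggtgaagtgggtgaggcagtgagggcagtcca
bdf2 intron, last 60 bases (ASM294v3, plus strand, chrI:2107822-2107881): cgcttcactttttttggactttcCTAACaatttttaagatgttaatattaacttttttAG

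The peak at seb1 (SPAC222.09, plus strand) lay at I:959907-960774, was 868 bp wide and had a listed p-value of 1.4622e-107. It was paired with seb1 alone. The peak covered 36.8% of the listed gene (I:959867-962227, 2361 bp), began 40 bp after its 5′ end and ended 1453 bp before its 3′ end. Its centre fell at 20.1% of the gene length, an offset of -706.5 bp from the midpoint. In the reference, seb1 begins 18 bp further downstream and ends at the same base. With those bounds the peak began 22 bp after the gene start and covered 37.0% of the gene. For seb1, unlike bdf2, both sets of bounds therefore placed the peak at the 5′ end.

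The seb1 peak also spanned the only intron of its gene. It covered 511 of the 533 nt of exon 1, the intron of 190 bp, and 167 bp of exon 2. Unlike that of bdf2, this intron interrupts the coding sequence, 357 nt into it. The peak began 154 bp before the start codon and held 524 nt of the 1863 nt of coding sequence (28.1%). The whole intron is shown with its terminal GT and AG and CTAAC in capitals.
seb1 intron (ASM294v3, plus strand, chrI:960418-960607): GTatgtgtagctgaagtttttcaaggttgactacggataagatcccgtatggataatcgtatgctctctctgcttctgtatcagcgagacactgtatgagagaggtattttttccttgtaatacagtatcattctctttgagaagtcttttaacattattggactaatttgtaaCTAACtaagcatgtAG

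CTAAC, searched on the sense strand, occurred once in the last 60 bases of both introns and its reverse complement in neither. It ended 32 bases before the 3′ end of the bdf2 intron and 11 bases before that of the seb1 intron. Of 2273 introns of at least 60 bases in protein-coding genes, 53.6% held it in that window.

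Introns under a Pac1 peak were rare in the list. Among 95 listed protein-coding genes found in the reference, 19 had an intron (20.0%), against 48.0% of the 5113 protein-coding genes of the reference. They held 40 introns, of which 8 lay wholly and 0 partly under the peak of their gene. These 8 belonged to 5 genes, or 5.26% of the 95. Besides bdf2 and seb1, they were tbp1, which encodes the TATA-binding protein, and the ribosomal protein genes rpl22 and rpl39. These 3 were named after their values were seen. In the listed genes whose introns lay outside the peak, the peak covered from 0.08% (rpc25) to 42.4% (gpi12) of the listed gene. In the 5 genes it covered from 35.6% (bdf2) to 96.2% (tbp1). Both rpc25 and gpi12 were also named after their values were seen. The part of this coverage in the count of introns under a peak was not tested.

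The introns of bdf2 and seb1 were long for this yeast. The median length of 5205 introns in protein-coding genes was 56 bp. Of these, 99.6% were shorter than the bdf2 intron and 92.8% shorter than the seb1 intron. Among the 40 introns of listed genes, that of bdf2 was the longest, and 6 were at least as long as that of seb1, itself included. The longest intron of tbp1 (255 bp) lay under its peak as well. Those of SPCC1795.05c (353 bp), dus2 (238 bp) and SPAC1705.02 (194 bp), also named after their values were seen, did not. The peak covered only 23.6% of SPCC1795.05c, 0.1% of dus2 and 22.4% of SPAC1705.02, so most of each gene lay outside it.

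**Figure D2:**
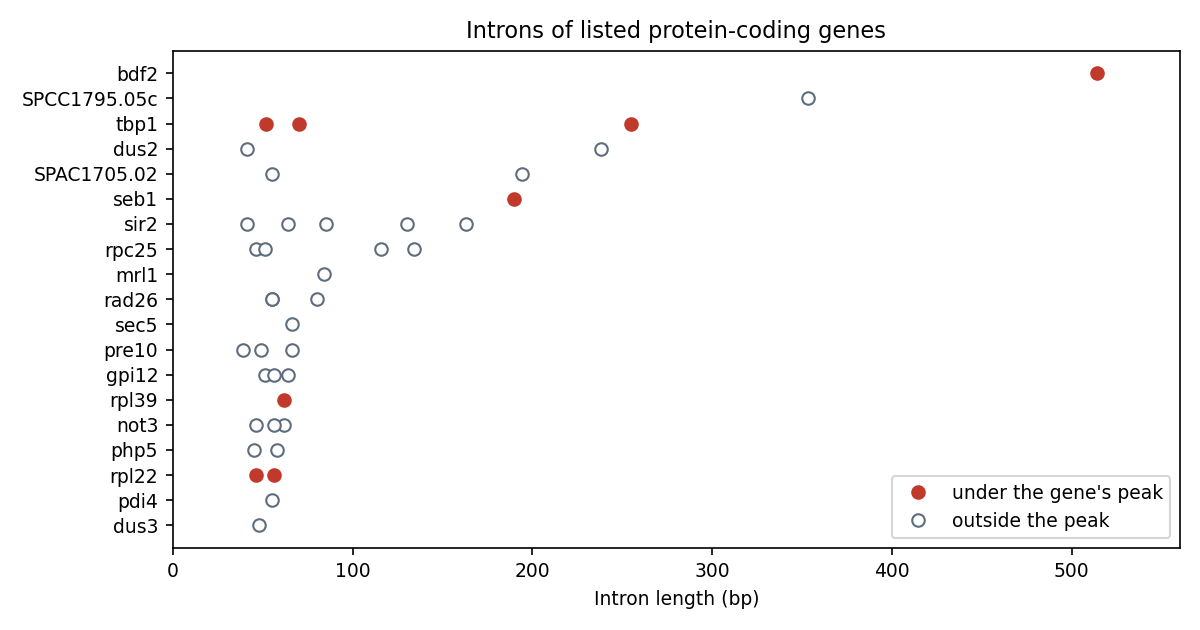
Length in bp of each of the 40 introns of 19 listed protein-coding genes, 1 gene per line. Filled points are introns under the peak of their gene (8) and open points those outside it; the longest, 514 bp in bdf2, and the 190 bp intron of seb1 are filled.

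The seb1 peak was the nearest of all to another peak. To its left lay the peak at snu2 (I:958767-959670, 904 bp, listed p-value 0), the gene of the U2 RNA, which pairs with the branch point of introns in the spliceosome. Between both peaks were 236 bp, the smallest of 85 gaps between neighbouring peaks (median 99716 bp), of which 4 were under 1000 bp. Their centres were 1122 bp apart and both peaks together spanned 2008 bp. On its other side, the next peak (at snu3, the gene of a U3 snoRNA) was 26443 bp from the seb1 peak. The bdf2 peak stood alone, with the nearest peak, at psu1, 283598 bp away.

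snu2 and seb1 are divergent, snu2 on the minus strand and seb1 on the plus strand, and 96 bp separated their listed 5′ ends. The snu2 peak reached 538 bp beyond the listed 3′ end of snu2 and began 100 bp inside its listed 5′ end, on the side of seb1, so that it stopped 196 bp before the listed start of seb1. The seb1 peak began 136 bp beyond the listed 5′ end of snu2. Neither peak thus overlapped the other gene. The mature U2 RNA of the reference, 187 nt long, is shorter than the listed gene, and its 5′ end was 328 bp from the reference start of seb1 and 350 bp from the seb1 peak. As the list holds no read coverage, how much signal lay in the 236 bp between both peaks, and the part of the snu2 signal in the seb1 peak, was not tested.

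**Figure D3:**
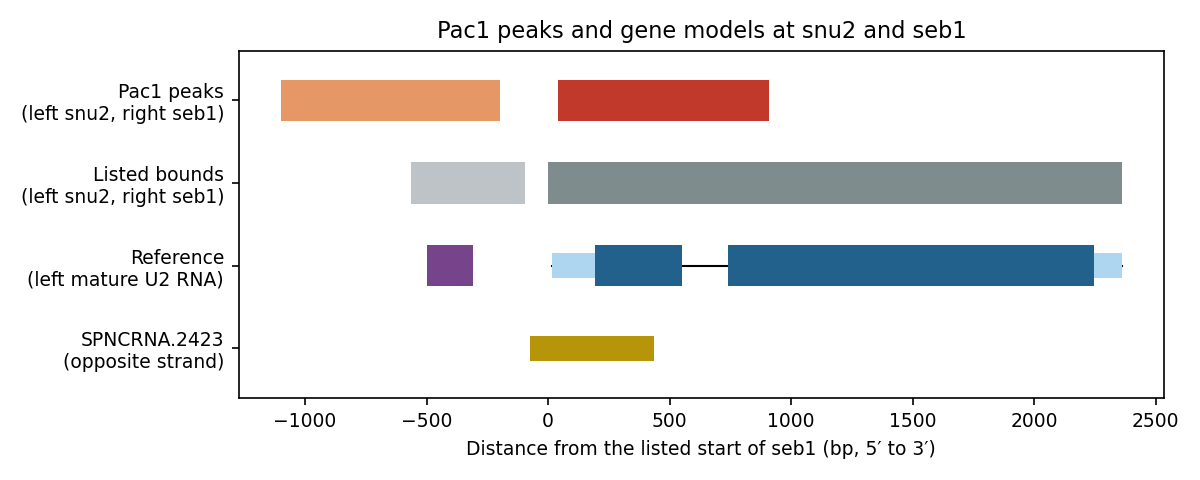
Pac1 peaks at snu2 and seb1 (top row), listed gene bounds, reference transcripts (seb1 drawn as in the plot of the bdf2 locus, mature U2 RNA on the left) and an antisense RNA gene, by distance in bp from the listed start of seb1. The peaks are 236 bp apart, on either side of both listed 5′ ends, while the mature U2 RNA lies wholly under the snu2 peak.

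The 250 bases before the reference start of seb1 hold the end of the snu2 peak and most of the gap. They are shown in the direction of seb1, with the first 36 bases, under the snu2 peak, in lower case and the 214 bases under neither peak in capitals.
seb1 upstream (ASM294v3, plus strand, chrI:959635-959884): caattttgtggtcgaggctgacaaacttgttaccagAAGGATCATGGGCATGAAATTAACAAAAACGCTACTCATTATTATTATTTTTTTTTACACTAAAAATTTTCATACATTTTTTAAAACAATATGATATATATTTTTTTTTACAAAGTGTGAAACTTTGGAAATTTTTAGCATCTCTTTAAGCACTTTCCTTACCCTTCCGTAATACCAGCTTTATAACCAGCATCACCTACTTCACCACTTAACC

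TATAAA, the TATA box, was searched on both strands of this window and of the same window of bdf2. In seb1 it occurred once, on the strand opposite to seb1 and 29 bp before the seb1 start, and in bdf2 it did not occur. The bdf2 window lay before the reference start, and that before the listed start, 1542 bp further upstream, was not searched. Of 5112 protein-coding genes with a full window, 44.4% held it on either strand and 27.7% on the sense strand.

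Both peaks also covered the 5′ end of an antisense long non-coding RNA (lncRNA) of the reference that the list does not hold. At bdf2, SPNCRNA.2945 (1434 bp) had 1153 bp under the peak, began 1172 bp downstream of the reference start of bdf2 and ran 261 bp past it. At seb1, SPNCRNA.2423 (509 bp) had 394 bp under the peak, began 415 bp downstream of the reference start of seb1 and ran 93 bp past it, toward snu2. Such pairs are common in this annotation, since 75.4% of 5113 protein-coding genes overlap an antisense lncRNA gene and 36.3% hold the start of one that runs out past the gene start. ChIP-seq reads carry no strand of transcription, so the sense and the antisense gene cannot be told apart in these peaks.

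No further gene of the reference overlapped either peak. The nearest neighbours in the reference, leaving out lncRNA genes numbered from 2000 upwards, were acp2 (an F-actin capping subunit) 1600 bp to the left of the bdf2 peak and utp5 (a U3 snoRNP protein) 2584 bp to its right. To the right of the seb1 peak, byr4 (a GAP of the septation pathway) was 1539 bp away.

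By p-value, bdf2 stood near the middle of the list and seb1 near its end. Of the 88 peaks, 52 had a smaller p-value than bdf2, among them 34 listed at 0, and 79 had a smaller one than seb1. By width, 51 peaks were narrower than that of bdf2 and 21 narrower than that of seb1 (range 545 to 5433 bp, median 1378.5 bp). The depth of the libraries is unknown here, and its part in these widths was not tested.

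By name, 95 of the 5113 protein-coding genes of the reference were paired with a peak (1.86%). Of 102 pairs of a protein-coding gene and a peak, 12 (11.8%) had the whole peak inside the gene, and bdf2 and seb1 were 2 of these. Since this placement was part of the choice, nothing is read from it. Across the 102 pairs the median covered share was 68.0%, and 36 pairs had a smaller share than bdf2 and 38 a smaller one than seb1. Among the 23 pairs whose peak had no other listed gene, the median was 92.4%, with 0 pairs below bdf2 and 1, bdf2 itself, below seb1. By the listed bounds, the genes covered less than bdf2 thus all had a peak with more than 1 listed gene. This did not hold by the reference bounds, with 51.3% of bdf2 covered. There seb1 (37.0%), SPBC530.02 (41.9%) and gas1 (42.8%), each alone at its peak, were covered less.

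Of the genes that held their whole peak, those nearest in covered share were alg3 (35.6%), a predicted mannosyltransferase gene, and SPCC11E10.01 (39.9%), a predicted cystathionine beta-lyase gene. Their peaks each had 2 listed genes. The peak in alg3 began 1114 bp after the gene start and ended 88 bp before the gene end, at the opposite end to that of seb1. That in SPCC11E10.01 began 110 bp after the listed start and ended 1651 bp before the gene end, but with the reference bounds of this gene it lay wholly outside, as its reference distance from gene start to peak was -1419 bp, more than the peak width of 1171 bp. Among the 98 pairs with reference bounds, the 5′ edge of the peak lay within 50 bp of the gene start in 34, of which 17 had it inside the gene, as in bdf2 and seb1.

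**Figure D4:**
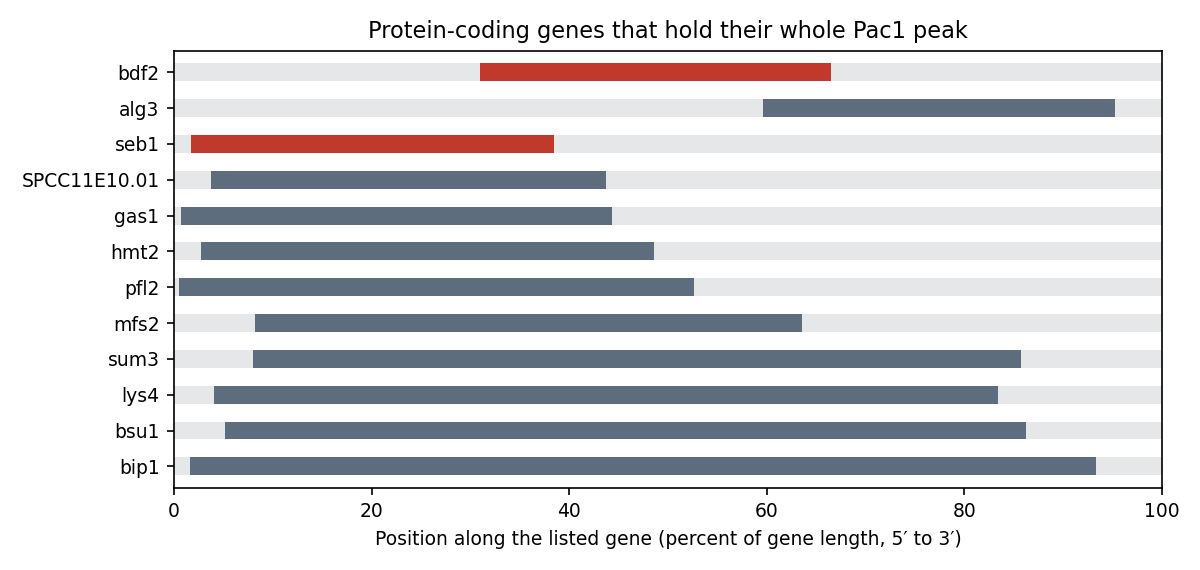
The 12 protein-coding genes that hold their whole peak, ordered by covered share, with the peak drawn along the listed gene in percent of its length from the 5′ end. bdf2 and seb1 are in red; bdf2 covers 35.6% in the middle and seb1 36.8% at the 5′ end.

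mfs2 and SPBC530.02, a pair of paralogs that the study examined for premature termination, had peaks over the 5′ part of the gene, as had seb1. For bdf2 this was so only by the reference bounds. By the listed bounds its peak began 1562 bp after the gene start, with the centre at 48.7% of the gene length. The peak in mfs2 began 164 bp after the listed start and covered 55.4% of the gene. That in SPBC530.02 began 71 bp before the listed start and covered 40.7%. By the reference bounds the distances were 118 bp after and 33 bp before the start. All 4 genes had the 3′ end outside the peak, by 734 bp in mfs2, 1099 bp in SPBC530.02, 1453 bp in seb1 and 1689 bp in bdf2. By definition this held in all 12 of the 102 pairs with the whole peak inside the gene. Its share over all pairs was not counted. For bdf2 and seb1 it followed from the choice of partly covered genes, so nothing is read from it. Neither paralog has an intron in the reference, which separates them from bdf2 and seb1. Both paralog peaks were listed with a p-value of 0.

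As Pac1 cuts hairpins, local structures were predicted with RNALfold on the sense strand of the reference genes, unspliced, with a span of at most 150 nt. The lowest energy of a structure under the peak was -46.0 kcal/mol in bdf2, against -39.8 in the rest of the gene. In seb1 it was -38.0 under the peak and -44.3 in the rest. The order depended on the span. With 200 nt it was -57.0 against -63.0 in bdf2 and -53.6 against -58.9 in seb1, and with 100 nt it was -30.2 against -24.1 in bdf2 and -32.2 against -30.5 in seb1. No direction is therefore given.

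For scale, windows of the same width at the same distance from the gene start were folded in every protein-coding gene long enough to hold one, again with a span of 150 nt. At the place of the bdf2 peak (1797 nt), the median of the lowest energy over 2468 genes was -40.5 kcal/mol, and 374 genes (15.2%) had a lower value than bdf2. At the place of the seb1 peak (868 nt), the median over 4440 genes was -37.5, and 2026 genes (45.6%) had a lower value than seb1. The seb1 value thus lay close to the median over genes and the bdf2 value in the lower part of the range. GC content was 38.9% in the bdf2 window, with a median of 37.7% over the genes, and 38.2% in the seb1 window, with a median of 37.1%, and its part in the energies was not tested.

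**Figure D5:**
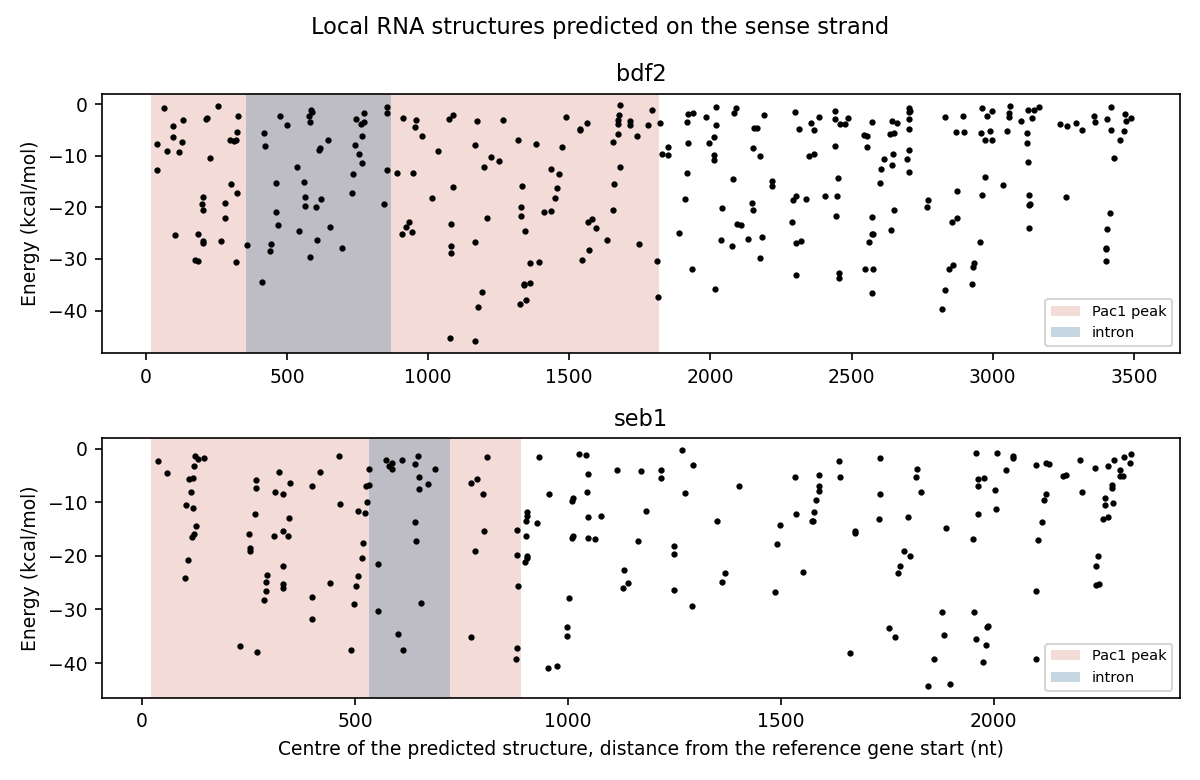
Energy in kcal/mol of each predicted local structure (span up to 150 nt) by the distance of its centre from the reference gene start, in bdf2 (top) and seb1 (bottom), with the peak in pink and the intron in blue. Low energies occur under the peak and outside it in both genes, with -46.0 the lowest in bdf2, under the peak, and -44.3 the lowest in seb1, outside it.

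Unbranched hairpins of at least 20 pairs were then listed at a span of 100 nt. The most stable one under the bdf2 peak had 34 pairs, a loop of 4 nt and -28.0 kcal/mol, and began 193 nt after the first base of the start codon, in coding sequence. In seb1 the most stable one lay across the 3′ edge of the peak, 58 nt inside and 39 nt beyond, with 35 pairs and -34.4 kcal/mol. A further one with 26 pairs and -23.8 kcal/mol lay under the seb1 peak across the 5′ splice site of the intron. The same measure gave 33 pairs and -37.5 kcal/mol under the peak in mfs2, and 33 pairs and -32.3 kcal/mol in SPBC530.02. Across the 3′ edge of the peak it gave -25.6 (32 pairs) in mfs2, -22.5 (32 pairs) in SPBC530.02 and -9.7 (20 pairs) in bdf2. Outside the peak, the lowest values were -24.1 (23 pairs) in bdf2, -19.6 (24 pairs) in seb1, -24.9 (30 pairs) in mfs2 and -29.3 (31 pairs) in SPBC530.02. The share of all genes with such a hairpin was not counted. The hairpins of bdf2 and seb1 are shown with paired bases in capitals.
bdf2, under the peak (ASM294v3, plus strand, chrI:2108133-2108226): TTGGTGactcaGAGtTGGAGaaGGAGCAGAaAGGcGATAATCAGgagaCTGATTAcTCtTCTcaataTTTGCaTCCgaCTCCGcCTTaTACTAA
seb1, across the 3′ edge of the peak (ASM294v3, plus strand, chrI:960717-960813): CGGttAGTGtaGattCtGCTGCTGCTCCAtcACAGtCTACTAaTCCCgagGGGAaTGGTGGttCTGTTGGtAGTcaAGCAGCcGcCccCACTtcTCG
seb1, under the peak (ASM294v3, plus strand, chrI:960354-960429): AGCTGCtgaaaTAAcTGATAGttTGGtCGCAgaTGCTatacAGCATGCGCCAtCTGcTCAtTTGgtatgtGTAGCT

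These are predictions from sequence, and whether Pac1 cuts any of them was not measured in these libraries. For mfs2, the study reported that recombinant Pac1 cut a stem-loop near the start of the coding sequence in vitro. It also reported that Pac1 association with mfs2 was lost when that stem-loop was mutated. Whether that stem-loop is the mfs2 hairpin given here was not tested. At most mRNA and lncRNA genes bound by Pac1, the study saw only minor changes of RNA polymerase II when Pac1 left the nucleus. It named mfs2 and SPBC530.02 as the protein-coding genes with important changes. Of the protein-coding genes upregulated in both of its pac1 mutants, these paralogs were the only ones it found bound by Pac1.

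TGTA, read as UGUA in RNA and a core of the motif that Seb1 binds, was counted on the sense strand only. Under the seb1 peak it occurred 10 times in 868 nt (1.15 per 100 nt), and 7 times in the remaining 1475 nt of the gene (0.475 per 100 nt). Of the 10, 6 were in the intron of 190 nt, whose sequence is given with its terminal bases in capitals. In bdf2 it occurred 9 times under the peak (0.501 per 100 nt) and 9 times outside it (0.527 per 100 nt), and its intron of 514 nt held 2 (0.389 per 100 nt), against 3.16 per 100 nt in the seb1 intron. The rate over all protein-coding genes was 0.384 per 100 nt. GC content in seb1 was 38.2% under the peak and 45.8% in the rest of the gene. It was 36.3% in the seb1 intron, 33.5% in the bdf2 intron and 37.2% over all protein-coding genes. The part of GC content in these counts was not tested, and the rate over other introns was not counted.

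Peaks were also counted over fixed gene lists, to be read against the 1.86% of all protein-coding genes paired with a peak. Of 22 genes of 3′ end processing and transcription termination, all found in the reference, 1 was paired with a peak, seb1 itself. Of 11 bromodomain genes, 10 were found, and 1 was paired with a peak, bdf2 itself. As seb1 and bdf2 were chosen for being in the list, and so few of all genes were, nothing is read from these counts about either group. Both RNase III genes, pac1 and dcr1, were found in the reference and neither was in the list.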

How the data were processed

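Pac1-TAP chromatin was sequenced in 2 immunoprecipitates, each with its own input. Trimming by the authors used Trimmomatic, mapping to ASM294v2 used HISAT2, and MACS2 called peaks per replicate over the matching input with duplicate reads kept. MSPC then merged both peak sets. The deposited list gives 1 combined p-value per peak, peak bounds and overlapping genes. It holds no depth, height or fold enrichment, and listed p-values of 0 were treated as tied. No column compares groups. The 4 RNAPII libraries were not analysed here.

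The members and lists used here were chosen with earlier results of these data known. Coordinates were used as listed, with both ends included. Gene models and sequence came from the RefSeq annotation and genome of ASM294v3, a later release. On chromosome I, 67 listed genes matched by name, of which 20 had both bounds identical and 64 at least 1, and the 3′ ends of bdf2 and seb1 were identical. Peaks were placed on the reference genes through these positions. Base changes between the releases were not tested, so printed sequences and their coordinates are those of ASM294v3. Percentages of covered genes were computed from bp, and no test was run, since the list compares no groups. Structures were predicted with ViennaRNA 2.7.2 in Python 3.11.15. The scripts were tested on simulated loci. Genes named were bdf2, seb1 and snu2, the paralogs mfs2 and SPBC530.02, nearest neighbours, the genes nearest in covered share that hold their whole peak, and members of the fixed lists; others are said to be named after their values were seen.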

Additional observations from a re-analysis of the deposited data

How the results depend on the processing

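Of 31 alternatives on 12 results, 24 were planned and 7 added after seeing the data. Reading peak starts as 0-based gave covered shares of 35.6% (bdf2) and 36.7% (seb1) and a gap of 237 bp. With the reference gene bounds the covered share was 51.3% in bdf2 and 37.0% in seb1, and the peak began 20 bp (bdf2) and 22 bp (seb1) after the gene start. Over the span from start to stop codon the shares were 40.8% and 34.8%. Counting all reference genes with an overlap of at least 1 bp, or of at least 50 bp, gave 2 genes at each peak. The second gene was the antisense lncRNA, and without lncRNA genes numbered from 2000 upwards the count was 1 again. With only peaks that had 1 listed gene, which leaves out peaks shared between genes, 7 genes held their whole peak by the listed bounds. In that set, the share of pairs covered less was 0% for bdf2, which was not the lowest by reference bounds, and 4.35% for seb1. That share was 27.5% and 29.7% with overlaps of at least 50 bp, 34.7% and 36.8% with p-values of at most 1e-100, and 41.8% and 36.7% with reference bounds, and the whole-peak genes were 11 under that p-value limit and 10 with reference bounds. A span of 100 nt moved the lowest energy under the peak to -30.2 (bdf2) and -32.2 kcal/mol (seb1) and a span of 200 nt to -57.0 and -53.6, as longer structures can hold more pairs. No paired analysis was possible because both replicates share 1 combined p-value per peak; fits without replicate 1 or replicate 2 were not run either. Depth is unknown, so how the peak bounds depend on it was not tested.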
